A study of Mus musculus with 2 samples.

Results

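The TAL1, LYL1 and LMO2 complex is described here through the transcripts of 10 genes, chosen by gene symbol: Tal1, Lyl1, Lmo2, Ldb1, Ldb2, Tcf3, Tcf4, Tcf12, Ssbp2 and Ssbp3. These members, and the lists of other genes below, were chosen with earlier results of these data known. All 10 were found among the 24062 genes counted, and all 10 passed the filter of at least 20 counts over both libraries, which 12544 genes passed. The cells were CD31+ KITint cells of the aorta of C57BL6 mouse embryos at embryonic day 11, labelled haematopoietic progenitor cells (HPCs). They were sorted on Gata2Venus, a fluorescent reporter for the blood transcription factor Gata2. The Gata2Venus- group held 1 library and the Gata2Venus+ group held 1 library, so every difference is one between these 2 libraries, without replicates and without a p-value. The number of embryos behind each library is not given in the sources used here. The series asks how progenitors that do not depend on Gata2 differ from those that express it.

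TAL1 and LYL1 are closely related basic helix-loop-helix (bHLH) proteins that bind the E-box of DNA only as partners of an E protein, the products of Tcf3, Tcf4 and Tcf12. The LIM-only protein LMO2 does not bind DNA and bridges this pair to a GATA factor, while LDB1 or LDB2 holds LMO2 and can pair with itself to bring distant DNA elements together. SSBP2 and SSBP3 bind the LDB proteins and protect them from degradation. The complex is known for its role in the emergence of blood cells from haemogenic endothelium, and it acts in endothelial, erythroid and megakaryocytic cells.

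Lyl1, Ssbp3, Ldb1 and Lmo2 were 5.08-fold, 3.43-fold, 2.64-fold and 2.62-fold lower in the Gata2Venus-negative library. Tal1 was 2.05-fold lower and fell short of the rule used for a call. Tcf3, Tcf12 and Ssbp2 were 1.11-fold, 1.07-fold and 1.13-fold higher there, and Tcf4 and Ldb2 were 1.45-fold and 1.37-fold lower.

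Levels are CPM, the counts of a gene for each 1e+06 counts in genes, after scaling by trimmed mean of M values (TMM), with exact Poisson 95% intervals. Ratios are log2 values of the negative over the positive library with exact Clopper-Pearson 95% intervals. The rule of size calls a gene that, in its higher library, has 10 CPM and 50 counts or more, and whose whole ratio interval is beyond 2-fold. All intervals cover counting error only, and no molecular identifiers are named for these PCR-amplified libraries, whose reads are then not independent molecules. In bulk RNA, fewer cells that express a gene and less RNA per cell cannot be told apart, and this holds for every difference given here. By the rule, 4 of 10 members were lower in the negative library, where 12.3% of all tested genes were lower, and 0 of 10 were higher, where 12.6% of all tested genes were. Among the 10381 genes that reached 10 CPM and 50 counts, as all 10 members did, the shares were 14.9% lower and 15.2% higher, and 24.9% of all tested genes were past the rule in either direction. The median log2 ratio of the 10 members was -0.79 and that of all tested genes was -0.01. A ratio below 0 was found for 7 of 10 members and for 50.4% of tested genes. Because earlier results of these data were known at the choice of members and lists, each share of all genes beside their counts is a description. It is not a test of the members or lists. No replicate shows the true spread: with a coefficient of variation of 0.4 assumed on top of counting error, 0 of the 4 members were past the rule.

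**Figure D1:**
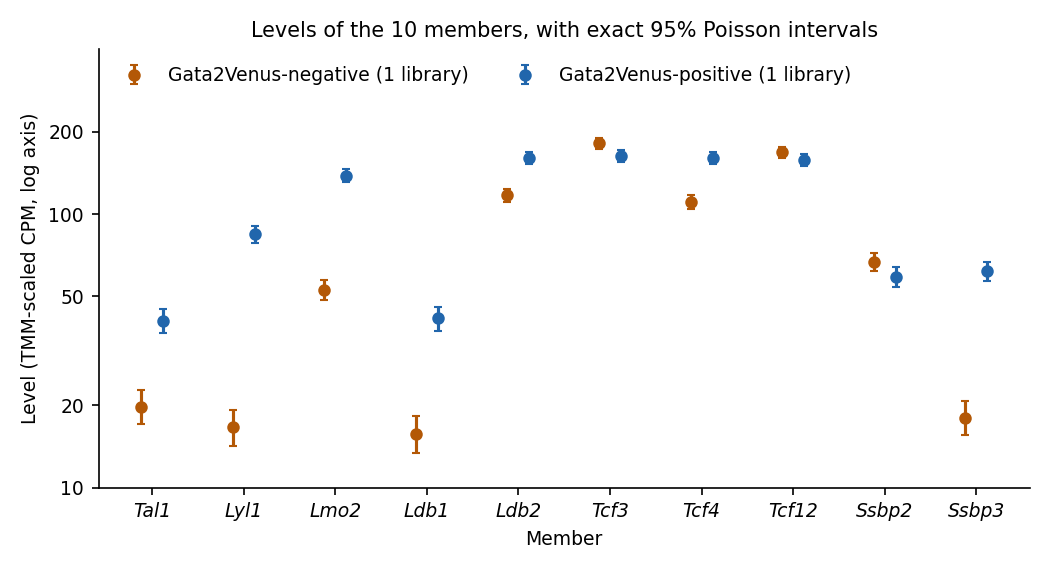
Levels of the 10 members (y axis, TMM-scaled CPM on a log axis) in the Gata2Venus-negative and Gata2Venus-positive library, 1 point per library with its exact Poisson 95% interval. The points of Lyl1 stand farthest apart, at 16.6 and 84.4 CPM, and those of Tcf12 closest, at 168 and 157 CPM.

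The libraries held 10135400 (negative) and 9715131 (positive) counts in genes. Gata2, whose reporter was sorted on, had 141 and 664 counts (13.5 and 70.2 CPM), the direction of the labels. Kit, the receptor of the KITint gate, had 2072 and 574 counts, 3.28-fold higher in the negative library although both libraries share that gate. Pecam1, which encodes the CD31 of the gate, had 5593 and 4627 counts (log2 ratio 0.13) and was not past the rule. Markers of several cell types also differed between the libraries. Their counts below stand beside 12.3% of all tested genes lower and 12.6% higher by the rule of size. Lists with few measured genes, such as the erythroid and lymphoid ones, are too short to be set against these shares. The 10 endothelial markers summed to 2749 CPM (negative) and 4982 CPM (positive), with 5 of 10 lower and 0 at 0 counts. The ratios of 9 of the 10 lay below 0, and that of Pecam1 lay above. Of 10 haematopoietic markers 3 were lower and 1, Kit, was higher (summed levels 828 and 1221 CPM), with 3 at 0 in the negative and 1 in the other. Ptprc, which encodes the blood marker CD45, had 194 and 498 counts, and Spn, which encodes CD43, had none in either. Megakaryocyte markers were lower in 6 of 9 (93.5 and 408 CPM), with 2 at 0 in the negative library, and macrophage markers were lower in 7 of 9 (195 and 1006 CPM), with 1 at 0 there. Of 10 mesenchymal and smooth muscle markers 6 were higher in the negative library (7709 and 4792 CPM), and none was at 0. The ratios of 3 of the 10, Dcn, Col1a2 and Lum, lay below 0, none of them past the rule. Of 9 erythroid markers 5 passed the filter, 1 was lower and 0 were higher (325 and 222 CPM, mostly embryonic globins). Of the 9, 5 (negative) and 3 (positive) were at 0. Of 8 lymphoid markers 3 passed the filter and 1 was lower (64.7 and 111 CPM), with 6 and 4 of the 8 at 0. Of 7 neural markers 3 passed the filter and 0 were past the rule (15.3 and 13.96 CPM). Of the 7, 5 (negative) and 3 (positive) were at 0. The part of these markers in the results on the members was not tested.

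Among the class II bHLH genes, Lyl1 (chromosome 8, 84701457 to 84704715, plus strand, mm10) had 173 counts (negative) and 798 counts (positive). These were 16.6 CPM (interval 14.2 to 19.3) and 84.4 CPM (interval 78.6 to 90.4). The level in the negative library was low and the intervals did not overlap, and the log2 ratio was -2.34 (interval -2.59 to -2.11). Of the 2262 tested genes with a mean level of 50 to 100 CPM, 3.23% had a ratio at least as far from 0. The mean level of Lyl1, 50.5 CPM, lies at the edge of that band, and of genes between 20 and 50 CPM 10.3% lay as far. Lyl1 was the only member whose interval also lay beyond 4-fold. LYL1 can stand in for TAL1 in adult blood stem cells, whereas TAL1 is required for the first blood cells of the embryo.

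Tal1 (chromosome 4, 115056426 to 115071755, plus strand) had 206 and 384 counts, giving levels of 19.8 (17.2 to 22.7) and 40.6 CPM (36.6 to 44.9). Its level was lower in the negative library with intervals that did not overlap, but the interval of its log2 ratio of -1.04, from -1.29 to -0.79, spanned 2-fold, so it was not past the rule. Of 3062 tested genes between 20 and 50 CPM, 39.8% had a ratio at least as far from 0.

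Lmo2 (chromosome 2, 103957986 to 103981878, plus strand), the LIM-only bridge, had 550 and 1308 counts. Its level was 52.8 CPM (interval 48.5 to 57.4) against 138 CPM (interval 131 to 146), with a log2 ratio of -1.39 (interval -1.53 to -1.24). Lmo2 was thus lower beyond the rule, and 12.8% of genes of 50 to 100 CPM lay as far from 0, as did 7.97% of genes of 100 to 200 CPM, the band next to its mean level of 95.6 CPM.

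The LDB genes differed in their ratios. Ldb1 (chromosome 19, 46031570 to 46045214, minus strand), which encodes the self-pairing adaptor, had 164 and 393 counts, giving levels of 15.8 (13.4 to 18.4) and 41.6 CPM (37.5 to 45.9). Its log2 ratio was -1.40 (interval -1.67 to -1.13), and 27.7% of genes of 20 to 50 CPM lay as far from 0. Exons of Ldb1 and of Pprc1 on the other strand share 177 bases, and since the use of strand in counting is not given in the sources used here, reads there cannot be assigned. Pprc1 had 951 and 769 counts, the opposite direction to Ldb1. Ldb2 (chromosome 5, 44472132 to 44799680, minus strand), a relative of Ldb1 with high levels in endothelium, had 1220 and 1520 counts, giving levels of 117 (111 to 124) and 161 CPM (153 to 169). Its log2 ratio of -0.46 (interval -0.57 to -0.35) lay wholly within 2-fold.

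The SSBP genes parted as well. Ssbp3 (chromosome 4, 106910701 to 107049694, plus strand) had 188 and 585 counts, giving levels of 18.1 (15.6 to 20.8) and 61.9 CPM (56.9 to 67.1), with a log2 ratio of -1.78 (interval -2.02 to -1.54). Of genes between 20 and 50 CPM, 18.3% lay as far from 0. Ssbp2 (chromosome 13, 91460283 to 91703429, plus strand) had 696 and 559 counts, giving levels of 66.9 (62.0 to 72.0) and 59.1 CPM (54.3 to 64.2). Its intervals overlapped and its log2 ratio was 0.18 (interval 0.01 to 0.34), wholly within 2-fold, so the pair differed in its ratios. The antisense gene that shares exon bases with Ssbp2 had 0 counts in both libraries.

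The 3 E protein genes were abundant in both libraries. Tcf3 (chromosome 10, 80409514 to 80433647, minus strand), which encodes E12 and E47, had 1891 and 1544 counts, or 182 (174 to 190.0) and 163 CPM (155 to 172), with a log2 ratio of 0.15 (interval 0.06 to 0.25). Tcf12 (chromosome 9, 71842688 to 72111871, minus strand), which encodes HEB, had 1750 and 1486 counts, or 168 (160 to 176) and 157 CPM (149 to 165), with a log2 ratio of 0.10 (interval -0.003 to 0.20). Tcf4 (chromosome 18, 69343356 to 69689079, plus strand), which encodes E2-2 and is not the Wnt effector of the same alias, had 1155 and 1522 counts. Its level was 111 CPM (interval 105 to 118) against 161 CPM (interval 153 to 169), and its log2 ratio of -0.54 (interval -0.65 to -0.43) set it apart from Tcf3 and Tcf12, whose intervals did not reach it. The 3 intervals lay within 2-fold, and 42.5% of genes of 100 to 200 CPM had a ratio as far from 0 as Tcf4.

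**Figure D2:**
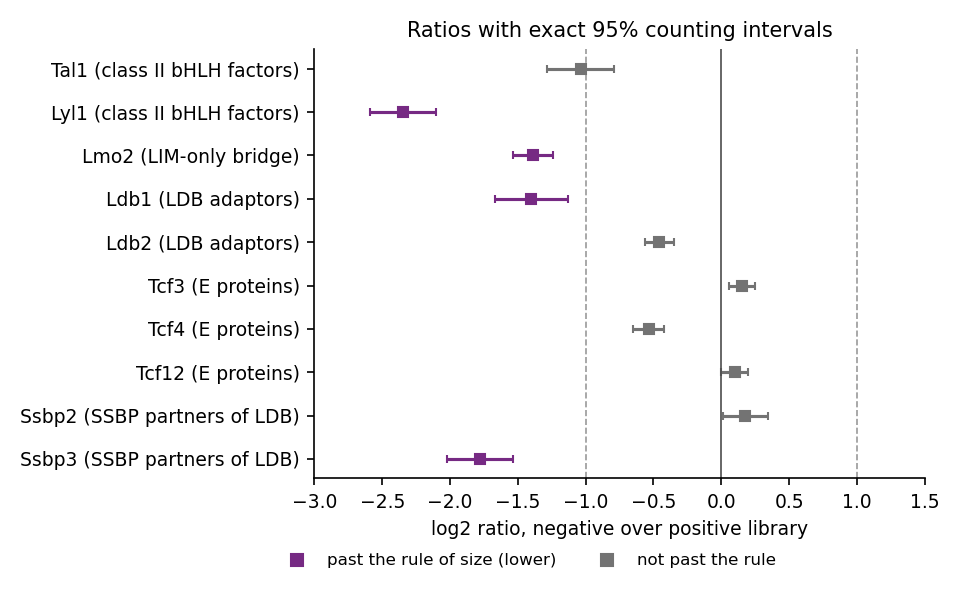
Log2 ratio of the Gata2Venus-negative over the Gata2Venus-positive library for each member (x axis), with exact 95% counting intervals, by role; dashed lines mark 2-fold. Lyl1, Lmo2, Ldb1 and Ssbp3 lie wholly below the lower dashed line, and the interval of Tal1 crosses it.

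**Figure D3:**
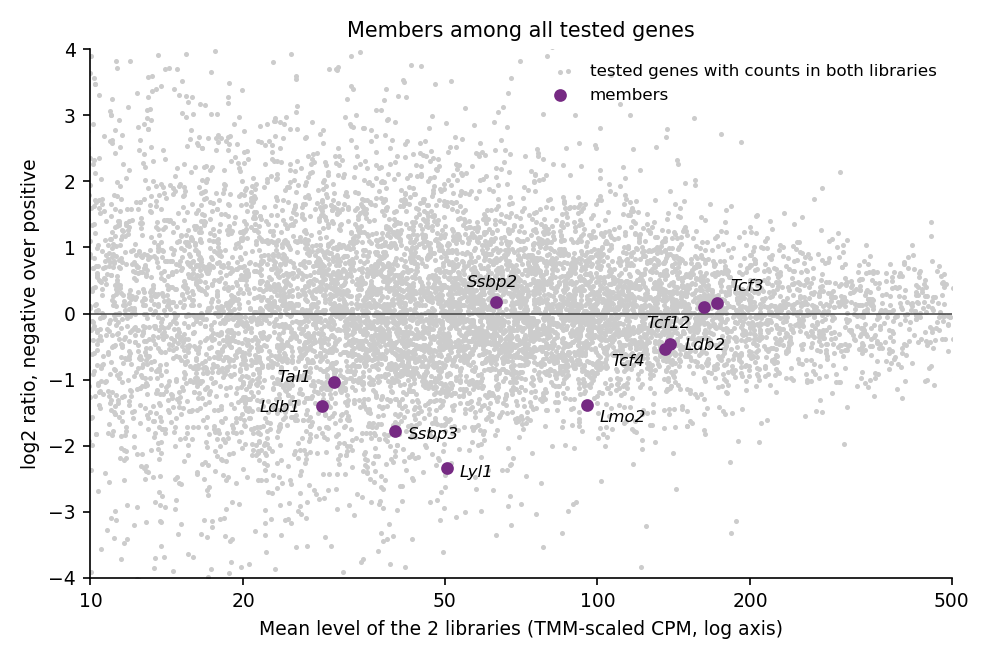
Log2 ratio (y axis, shown from -4 to 4) against the mean level of both libraries (x axis, 10 to 500 CPM, log axis) for tested genes with counts in both libraries, with the 10 members named. Lyl1, at a ratio of -2.34 and a mean level of 50.5 CPM, lies lowest of the 10 members.

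The mixture within each group of related genes does not depend on the scaling between libraries, and was taken as the share of the group's counts. Lyl1 gave 45.6% (Clopper-Pearson interval 40.6 to 50.8) of the counts of Tal1 and Lyl1 in the negative library and 67.5% (interval 64.8 to 70.2) in the positive. Per kilobase of exon, which sets levels of different genes on 1 scale, Lyl1 was 67.1% and 83.5% of the pair. Lyl1 was therefore the larger part of the pair per length in both libraries, and its share was smaller in the negative one.

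Ldb1 gave 11.8% (interval 10.2 to 13.7) of the counts of the LDB pair in the negative library and 20.5% (interval 18.8 to 22.4) in the positive one. Ldb2 was the larger part in both, at 91.1% and 84.2% per kilobase. Ssbp3 gave 21.3% (interval 18.6 to 24.1) of the counts of the SSBP pair in the negative library and 51.1% (interval 48.2 to 54.1) in the positive one. The pair was thus near balance in the positive library and made up mostly of Ssbp2 in the negative one, with Ssbp2 at 75.3% against 44.1% per kilobase.

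Among E proteins, Tcf4 gave 24.1% (interval 22.9 to 25.3) of the counts in the negative library and 33.4% (interval 32.1 to 34.8) in the positive one. Tcf3 gave 39.4% and 33.9%, and Tcf12 gave 36.5% and 32.6%. Tcf4 thus had a smaller part of the E protein reads in the negative library. Per kilobase of exon Tcf3 was the largest part in both, at 75.1% and 71.6%, and Tcf4 the smallest, at 6.77% and 10.4%. Tal1 and Lyl1 together gave 7.32% (interval 6.63 to 8.07) of the counts of the 5 bHLH members in the negative library and 20.6% (interval 19.6 to 21.7) in the positive. Per kilobase of merged exon the 2 class II genes were 18.7% and 49.9% of the 5, and per kilobase of the longest transcript 12.1% and 36.3%. Their share was thus smaller in the negative library by either length. In the positive library the 2 class II genes were nearly level with the E protein genes per merged exon. Per longest transcript they were clearly below them.

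**Figure D4:**
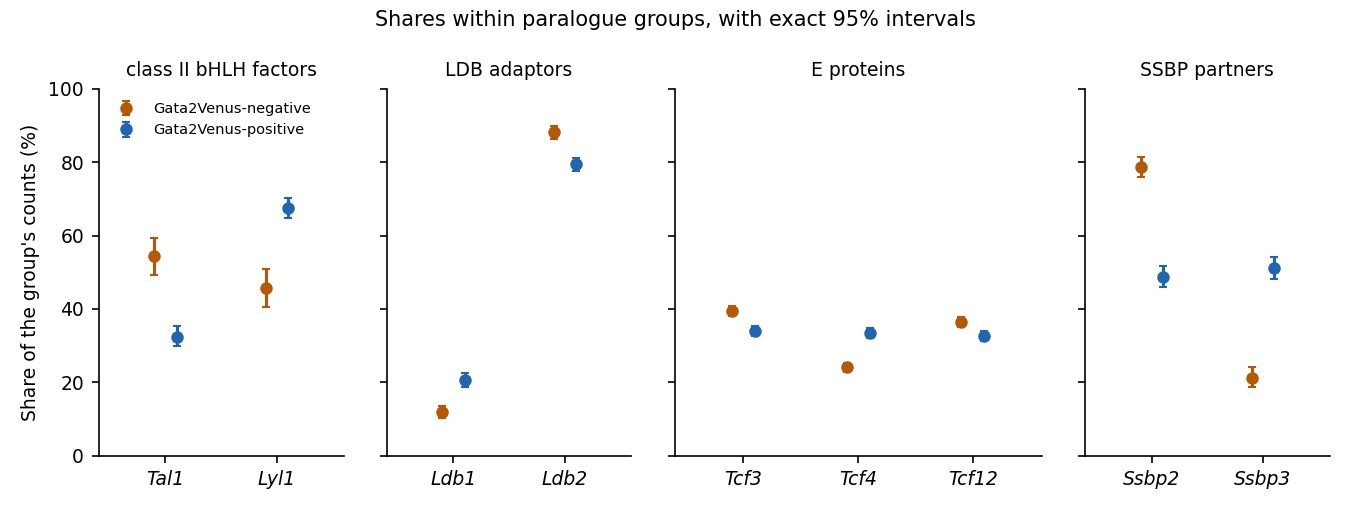
Share of each group's counts (y axis, percent) taken by each gene in the Gata2Venus-negative and Gata2Venus-positive library, with exact Clopper-Pearson 95% intervals. The SSBP pair shows the widest gap, with Ssbp3 at 21.3% (negative) and 51.1% (positive).

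Levels of different members were compared per kilobase of merged exon. In the negative library Tcf3 was highest at 45.0 CPM per kilobase, followed by Ldb2 at 35.1, Lmo2 at 24.4, Tcf12 at 10.8, Lyl1 at 9.23 and Ssbp2 at 8.37 CPM per kilobase. The intervals of Tcf12 and Lyl1 overlapped, as did those of Lyl1 and Ssbp2. Tal1 (4.52), Tcf4 (4.05), Ldb1 (3.42) and Ssbp3 (2.74 CPM per kilobase) came last, and each of these overlapped the next in its counting interval. In the positive library Lmo2 led at 63.9 CPM per kilobase, ahead of Ldb2 at 48.2 and Lyl1 at 46.9, which overlapped each other, and Tcf3 at 40.4 CPM per kilobase. Tcf12, Ssbp3, Tal1 and Ldb1 lay between 10.1 and 9.02 CPM per kilobase and each overlapped the next, and Ssbp2 (7.40) and Tcf4 (5.88 CPM per kilobase) were lowest. Lmo2 thus had rank 1 in the positive and rank 3 in the negative library, and Lyl1 ranks 3 and 5, or 4 and 7 when the longest transcript was used as length. The annotation gives Tcf4 62 transcripts with 27382 bases of merged exon, and with its longest transcript, of 8577 bases, it was at 12.9 and 18.8 CPM per kilobase. With the longest transcripts as lengths Tcf4 had ranks 6 (negative) and 7 (positive), and Tal1, at 4.70 and 9.64 CPM per kilobase, had the lowest rank in both.

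Promoter sequence is shown for Tal1 and for the lower members that have an entry, whose ratios all lay below 0. Of the 10 members 7 had a start in the RefSeq table (GRCm38.p6), and Lmo2, Ldb2 and Tcf4 did not. The 250 bases before each start were searched on both strands for the GATA letters AGATAA and TGATAA, for the E-box CANNTG and for the ETS core GGAA. Shown are the only window of Lyl1 and, for the others, the window with GATA letters, 5′ to 3′ on the gene's strand, with GATA letters and E-boxes of either strand in capitals.
Tal1: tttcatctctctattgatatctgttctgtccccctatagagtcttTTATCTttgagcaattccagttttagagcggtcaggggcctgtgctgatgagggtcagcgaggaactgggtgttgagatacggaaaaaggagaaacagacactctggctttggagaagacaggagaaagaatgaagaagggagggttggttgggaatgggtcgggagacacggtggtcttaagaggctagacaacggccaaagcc
Lyl1: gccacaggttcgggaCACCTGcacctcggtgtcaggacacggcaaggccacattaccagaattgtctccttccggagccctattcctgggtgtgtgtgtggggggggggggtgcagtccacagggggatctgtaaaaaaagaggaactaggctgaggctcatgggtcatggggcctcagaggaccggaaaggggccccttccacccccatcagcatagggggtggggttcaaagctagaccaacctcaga
Ldb1: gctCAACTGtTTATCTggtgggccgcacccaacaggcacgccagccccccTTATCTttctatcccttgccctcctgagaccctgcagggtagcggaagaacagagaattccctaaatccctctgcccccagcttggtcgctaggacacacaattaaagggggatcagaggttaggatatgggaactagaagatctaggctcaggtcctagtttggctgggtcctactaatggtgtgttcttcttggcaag
Ssbp3: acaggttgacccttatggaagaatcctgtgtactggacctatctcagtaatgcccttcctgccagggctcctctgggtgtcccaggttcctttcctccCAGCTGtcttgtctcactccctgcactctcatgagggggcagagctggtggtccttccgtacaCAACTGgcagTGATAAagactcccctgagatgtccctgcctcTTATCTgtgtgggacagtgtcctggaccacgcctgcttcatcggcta

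The Tal1 window (chr4:115056176-115056425) lies upstream of the gene and holds 1 GATA match, and the Lyl1 window (chr8:84701207-84701456) lies within a span annotated to Nfix on the other strand and holds 0 GATA matches, 1 E-box and 5 ETS cores. The Ldb1 window (chr19:46037071-46037320) and the Ssbp3 window (chr4:106922935-106923184) precede starts inside the genes, in introns of other transcripts, and hold 2 GATA matches each. None of the 4 windows overlaps an annotated exon. Over the 6 windows of the lower members 2 held GATA letters and 3 an E-box, and over the 7 windows of the other members 1 and 3 did. Of all 32851 windows, 16.6% held GATA letters, 66.2% an E-box and 93.4% an ETS core. The composite of an E-box followed after 6 to 12 bases by GATA, the arrangement known for the complex, was in 0 of these 13 windows and in 3.21% of all windows. A match is a description of letters and not a binding site.

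Close relatives of the members were read next, from lists of the complex's surroundings. Lmo1, a LIM-only gene of neural tissue that can also bridge TAL1 in leukaemia, had 203 counts (negative) and 23 counts (positive) and was 8.02-fold higher (log2 interval 2.38 to 3.69), the opposite side to Lmo2. Of genes between 10 and 20 CPM, 22.1% lay as far from 0 as Lmo1. Lmo4 had 341 and 334 counts (log2 ratio -0.11) and Ssbp4 147 and 207 (log2 ratio -0.63), neither past the rule. Lmo3 had 0 and 68 counts, under 10 CPM, and Tal2 had 0 in both.

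The ID genes encode inhibitors that pair with E proteins and keep them from DNA. None of the 3 measured was past the rule in either direction, where 24.9% of all tested genes were. At 200 to 500 CPM, the band of Id2 and Id3, only 2.34% of genes were lower and 2.86% higher. A count of 0 of 3 therefore says little about the ID genes. Id3 had 3409 and 4144 counts (log2 ratio -0.42, interval -0.49 to -0.35), Id2 had 3056 and 2054 (log2 ratio 0.43, interval 0.35 to 0.52) and Id1 had 575 and 464 (log2 ratio 0.17). Id4 had 3 counts and 0. The summed level of the ID genes was 676 CPM (negative) and 704 CPM (positive), and that of the E protein genes was 461 and 481 CPM. These sums are not corrected for gene length, so each compares the libraries and not ID genes with E protein genes.

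The 16 DNA-binding partners and cofactors had a median log2 ratio of -0.83, with 5 lower and 1 higher in the negative library. Of all tested genes 12.3% were lower and 12.6% higher. Gata1, the erythroid and megakaryocytic GATA factor, had 0 and 351 counts, at least 129-fold lower with the 0 taken as 3 counts. Gfi1b, a repressor that is a partner and a target, had 0 and 252, at least 92.5-fold lower on the same floor. The exact intervals, which also hold the counting error of the other library, reach closer to equal levels, to log2 ratios of -6.70 for Gata1 and -6.22 for Gfi1b. Of 1681 tested genes with a mean level of 10 to 20 CPM, the band of both, 9.40% likewise had 0 counts in 1 library. Runx1 (21 and 303 counts) was 15.9-fold and Gata3 (46 and 376) 8.998-fold lower. In their bands, 10 to 20 CPM for Runx1 and 20 to 50 CPM for Gata3, 17.3% and 5.65% of genes lay as far from 0. Gata2 was the other lower gene, and since the cells were sorted on its reporter its direction is no finding. It is nevertheless included in the 5 lower genes and in the median of the list. Runx1t1, which encodes the corepressor ETO and was named after its values were seen, was the 1 higher gene, with 1342 and 217 counts (log2 ratio 2.49, interval 2.28 to 2.70). The assumed variation of 0.4 ended the calls of Runx1t1 and Gata2, and scaling by total counts put its relative Cbfa2t2 past the rule (log2 ratio 1.20). Its blood relative Cbfa2t3, which encodes ETO2 of the TAL1 complex, had 199 and 371 counts (log2 ratio -1.04, interval -1.29 to -0.78) and was not past the rule. Hdac2, named after its values were seen, had 1458 and 2816 counts (log2 ratio -1.09) and was not past the rule either. Scaling without the 100 most abundant genes put it past the rule as lower.

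Other proteins compete for the same partners. Among 28 genes of other class II bHLH factors, which pair with E proteins in other tissues, 11 were measured. In the negative library 4 were higher and 0 lower, with a median log2 ratio of 1.55, where 12.6% and 12.3% of all tested genes were. Hand1, a factor of heart and lateral mesoderm, was 2.93-fold higher, at 174 and 59.3 CPM (1807 and 561 counts), and Twist2, a factor of mesenchyme, was 3.06-fold higher (398 and 118 counts). Atoh8 had 197 counts and 0, and Bhlha15 137 and 0, at least 59.7-fold and 41.5-fold higher on that floor, with exact intervals from log2 ratios of 5.59 and 5.06 upwards. Of 3071 tested genes with a mean level under 10 CPM, the band of both, 44.5% likewise had 0 counts in 1 library. Of 12 LIM-homeodomain genes, whose products bind LDB proteins, 6 were measured and 1 was past the rule. In either direction 24.9% of all tested genes were past it. Isl1 was 5.77-fold higher in the negative library (933 and 147 counts, log2 ratio 2.53, interval 2.28 to 2.79), Lhx6 had 187 and 225 counts, and Lhx1 had 0 and 71. Lhx9, with 74 counts and 0, and Isl2, with 65 and 0, both named after their values were seen, lay on the other side and, like Lhx1, under 10 CPM. The assumed variation ended the calls of Hand1, Twist2 and Isl1. Of 10 mesenchymal markers 6 were higher in the same library, and the part of such markers in the higher bHLH and LIM genes was not tested.

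Of 23 known targets of the complex in blood and endothelium 19 were measured. In the negative library 7 were lower and 2 higher, where 12.3% and 12.6% of all tested genes were, and the median log2 ratio was -1.44. Beside Gfi1b and Runx1, Nfe2, a factor of platelet formation, had 0 and 106 counts, at least 38.9-fold lower on that floor with an exact interval up to a log2 ratio of -4.96, and the platelet glycoprotein gene Gp1ba had 1 and 101 (log2 ratio -6.80, interval -12.11 to -4.29). Of 3071 tested genes with a mean level under 10 CPM, 44.5% and 46.5% lay as far from 0 as Nfe2 and Gp1ba. Named after their values were seen, Hhex, an early factor of blood and endothelium (222 and 1495 counts, log2 ratio -2.89), Tek, the angiopoietin receptor gene (1108 and 3076, log2 ratio -1.61), and Cdh5, which encodes VE-cadherin (1084 and 2667, log2 ratio -1.44), were the other lower genes. Kit and Angpt2, the angiopoietin gene also named after its values were seen (672 and 127 counts, log2 ratio 2.27), were the higher ones. The assumed variation ended the calls of Tek, Cdh5, Kit and Angpt2. The list shares 12 genes with the marker lists, so it is not separate from them. It also shares 3 genes, Gfi1b, Runx1 and Cbfa2t3, with the partners and cofactors, so Gfi1b and Runx1 are counted as lower in both lists. Of its 23 genes 7 had no counts in the negative library, against 3 in the positive one.

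**Figure D5:**
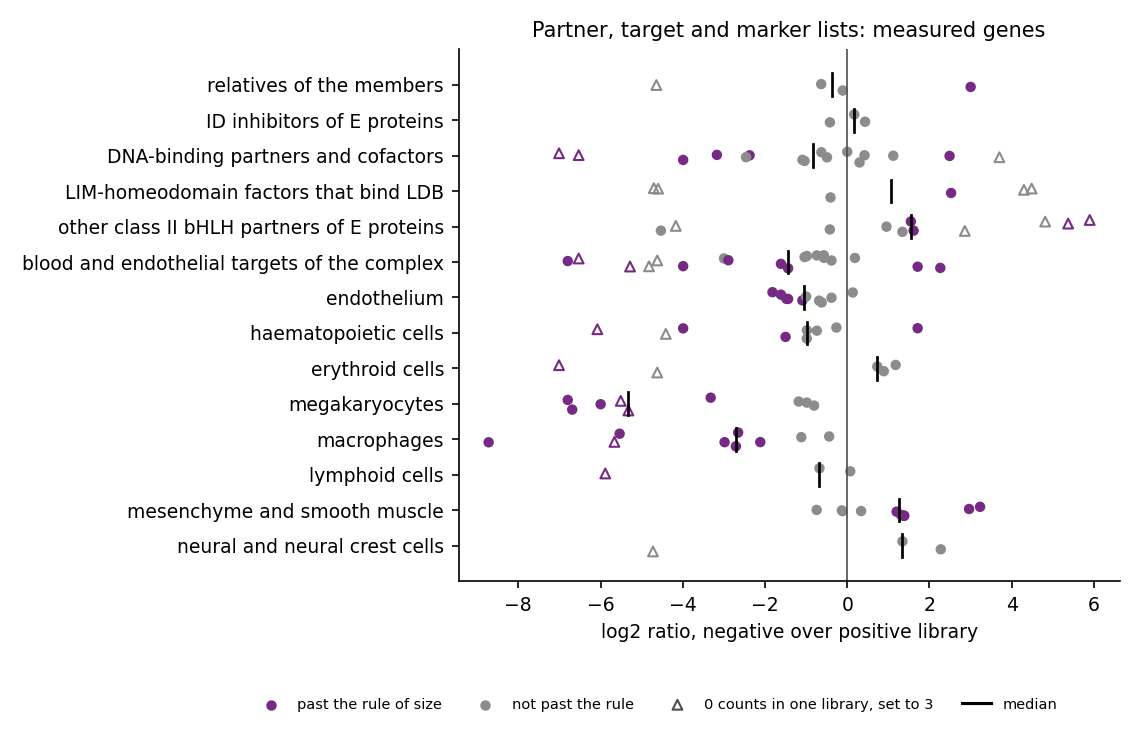
Log2 ratio of the negative over the positive library (x axis) for each measured gene of the partner, target and marker lists, with open triangles for genes at 0 in one library, set to 3 counts, and bars for medians. Targets have a median of -1.44, other class II bHLH genes of 1.55 and ID genes of 0.17.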

How the data were processed

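The authors deposited 1 table for each library, with raw counts of reads by gene symbol. TopHat, Cufflinks and HTSeq and the build mm10 are named per the submitters' processing notes; their versions, the annotation and whether strand was used are not stated there. Per the labels' protocols, RNA was prepared with a mirVana kit and SMARTER amplification. The 5 rows for reads of no gene, among them the non-unique alignments with 45.5% and 48.2% of all counts, were left out. Counts in genes totalled 10135400 and 9715131, so 3 counts, the floor that stands for a count of 0 in every fold given as "at least", are 0.288 and 0.317 CPM; the two-sided exact Poisson interval of a count of 0 reaches somewhat higher, to 0.354 and 0.390 CPM.

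With 1 library per group no edgeR or DESeq2 test was possible. Counts were scaled by TMM (edgeR 4.0.16, R 4.3.3; factors 1.03 and 0.974), and the rule of size was run on the whole table. Epb42 and Adgre1 were matched by an older symbol. Coordinates and exon lengths come from GENCODE vM21 (mm10). Members and lists were chosen with earlier results of these data known. All members were named, as were lists of under 9 genes, and of longer lists up to 4 genes past the rule farthest from equal expression, or else the 2 most abundant. Counts were simulated for this comparison over 24062 genes, with counting error alone. Calls were made for 65 of 67 genes at a 3-fold change, for 66 of 66 at 4-fold and for 67 of 67 at 8-fold. These rates hold for the genes changed in the simulation and not for genes of every level. Without change, 0 of 23862 genes were called, but these include genes too low in counts for the rule to call. Since no spread between libraries was simulated, that 0 does not give the rate of false calls in the real data. Alternatives were 3 other scalings (total counts, DESeq2 1.42.0 size factors, total without the 100 most abundant genes), 3 other filters, a 4-fold rule, a rule without the interval, an assumed coefficient of variation of 0.4, thinning, 0.5 added counts and the longest transcript as length. Protein sequences were not used here.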

Additional observations from a re-analysis of the deposited data

How the results depend on the processing

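No paired analysis was possible because each group holds 1 library, and for the same reason no library could be left out. Under the 3 other scalings, thinning and 0.5 added counts, the same 4 members were past the rule; scaling by total counts moved the median of all tested genes from -0.01 to 0.07 and every member's log2 ratio by a like amount. The assumed coefficient of variation of 0.4 left 0 members past the rule, with Lyl1 (-2.34), Lmo2 (-1.39), Ldb1 (-1.40) and Ssbp3 (-1.78) all losing it, and 663 higher and 694 lower genes of all tested. The 4-fold rule left 1 member, Lyl1, with 744 higher and 751 lower genes, and Lmo2, Ldb1 and Ssbp3 lost it. At 50 CPM Ldb1 (-1.40) lost it, because neither library reached that level, and 629 and 545 genes were called. Without the interval Tal1 (-1.04) was past 2-fold. Of 56 measured pathway genes 9 were higher and 10 lower, where 12.6% and 12.3% of all tested genes were. Among genes that reached 10 CPM and 50 counts these shares were 15.2% and 14.9%. The pathway counts became 14 and 19 at 1 CPM and 10 counts, and 14 and 19 without a filter. Either setting called 2210 higher and 2298 lower genes of the 12544 tested. They became 5 and 4 at 50 CPM, 5 and 8 by the 4-fold rule, and 3 and 7 with the assumed variation. Kdm1a turned from near 0 to -0.0088 without the 100 most abundant genes. Under that scaling Hdac2 went past the rule as lower (log2 ratio -1.10), with 11 lower pathway genes. With the longest transcript as length, Ldb1 and Ldb2 in the positive library were 17.6% and 82.4% of their pair per kilobase, and in the negative and positive library Tcf3 was 60.8% and 55.9%, Tcf4 12.8% and 18.9%, and Tcf12 26.4% and 25.2% of the E proteins, and Tal1 and Lyl1 together 12.1% and 36.3% of the bHLH members.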

Other observations

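The nearest protein-coding genes that do not overlap a member, looked at after the members' values were seen, did not all lie on the members' side. Genes that overlap a member, such as Nfix at Lyl1 (11 and 1 counts) and Pprc1 at Ldb1, were left out. Distances ran from 1649 bases to 914036 bases. Beside Tal1, Stil, a centriole gene, had 852 counts (negative) and 200 counts (positive; log2 ratio 1.95, past the rule), and Pdzk1ip1, on the other side of Tal1, had 0 and 81 counts, under 10 CPM. Beside Lmo2, Fbxo3 had 125 and 800 counts (log2 ratio -2.82, past the rule), and Caprin1 had 8855 and 6729 (log2 ratio 0.26). Trmt1, which lies 1649 bases from Lyl1, had 700 and 1170 counts (log2 ratio -0.88). Dand5, on the other side at 110690 bases, had 32 and 0, under 10 CPM. Beside Ldb1, Hps6 had 201 counts and 0 (past the rule) and Nolc1 had 3664 and 3457 (log2 ratio -0.05). Beside Ssbp3, Mrpl37 had 1269 and 924 counts (log2 ratio 0.32) and Acot11 had 311 and 118 (log2 ratio 1.26), neither past the rule. Among the nearest genes of Ldb2, Tcf3, Tcf4, Tcf12 and Ssbp2, Tapt1 beside Ldb2 was the one past the rule, with 199 and 490 counts (log2 ratio -1.44), on the side of Ldb2.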
